A study of Sus scrofa with 8 samples.

Results

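Prostaglandin genes of the pig endometrium, the lining of the uterus, were compared between 2 breeds. The genes were the cyclooxygenases PTGS1 and PTGS2, the terminal synthases PTGES, PTGES3, PTGDS and TBXAS1, the oxidoreductases HPGD and CBR1, the prostaglandin F receptor PTGFR, and ALOX5AP of the leukotriene branch. All probesets that the annotation of the array, or the gene list of the study, names for 1 of these 10 genes were taken, whatever their values. On this array each probeset combines several short probes against 1 transcript. This gave 12 of the 23999 probesets tested, for 9 genes. HPGD was named for none, and it is not analysed here. Neither name source gives probe sequences, and none is shown.

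The samples were endometrium of 4 Meishan and 4 Yorkshire gilts, which are young female pigs. Meishan is a Chinese breed known for large litters. Matings were within the breed, so Meishan gilts carried Meishan and Yorkshire gilts Yorkshire conceptuses, and no gilt was pregnant from her first estrus. Tissue was taken on day 12 of gestation, and a uterus was used only when its conceptuses had all become filamentous. RNA of each gilt was hybridized to its own one-colour Affymetrix Porcine Genome array, so each of the 8 arrays is a separate animal, and their number limits the precision of every value. The pieces were whole endometrium, in which fewer cells of a type and less RNA per cell cannot be told apart.

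Prostaglandins are lipids made from arachidonic acid, which phospholipases release from membranes. The cyclooxygenases turn it into the common precursor prostaglandin H, and a separate synthase then makes each end product. In the pig, prostaglandin F from the endometrium ends the life of the corpus luteum in the cycle. In early pregnancy estrogen from the conceptuses turns its release away from the blood and into the uterine lumen, while prostaglandin E protects the corpus luteum. The comparison of the breeds asks whether transcripts of this pathway differ at the time of maternal recognition of pregnancy.

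No probeset of these genes passed the test between the breeds. Signals are linear intensities as the authors' software gave them, centred here so that every array has the same median, and a mean signal is the geometric mean of 4 gilts. Differences are given on the log2 scale as Meishan minus Yorkshire with their standard error (SE), and calls were made where the Benjamini-Hochberg adjusted p in limma lay below 0.1. Of the 12 probesets 0 were called, where 0.908% of all tested probesets were. In a refit here of the methods' linear model, unmoderated and with q-values, 0 passed either, against 2.08% of all. The study's own model called more probesets than this refit, and the paper counts ALOX5AP among its differentially expressed genes. Its gene list also names the dimmer PTGES3 probeset. An unadjusted limma p below 0.05 was found at 4 of 12, against 14.8% of all, 2 of them with more signal in Meishan (TBXAS1 and the dimmer PTGES3 probeset) and 2 with more in Yorkshire (PTGDS and ALOX5AP). The breeds were fully apart at 3 of 12, against 10.1% of all, with every Meishan gilt above at 1 of 12 (5.01% of all) and every Yorkshire gilt above at 2 of 12 (5.09% of all). The median log2 difference was -0.20 over the 12 and 0.0211 over all tested probesets, the median absolute difference was 0.83 over the 12 and 0.337 over all, and 4 of the 12 lay toward Meishan and 8 toward Yorkshire, where 51.7% of all lay toward Meishan. In what follows a signal of 64 serves as a working level for detection, which 10 of the 12 probesets reached in at least 2 gilts of a breed.

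**Figure D1:**
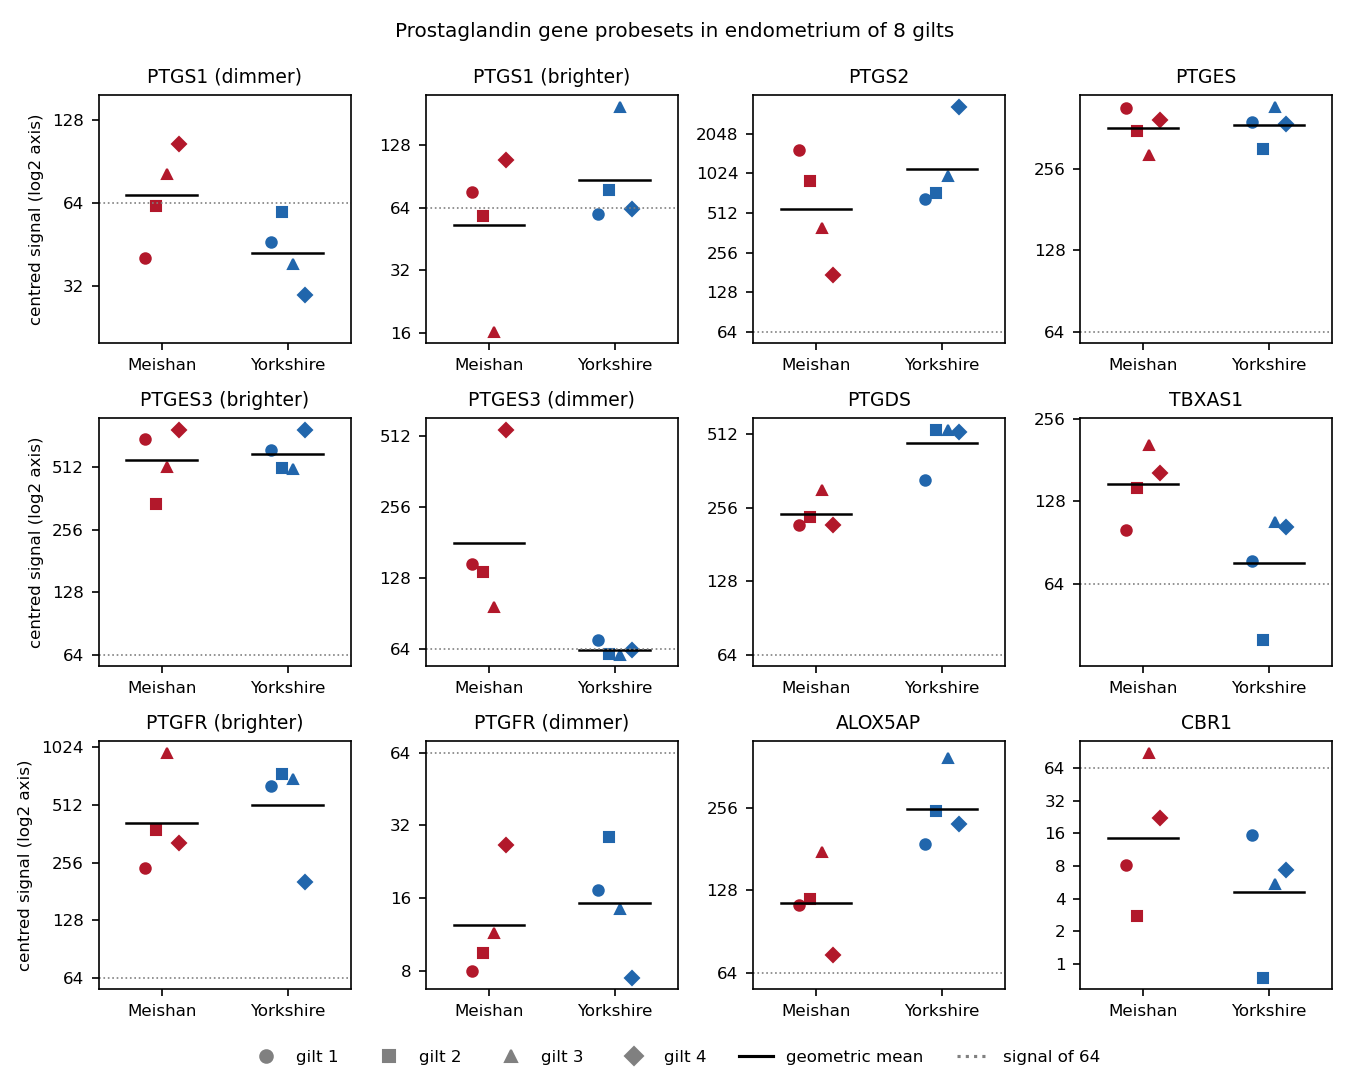
Centred signal (vertical axis, log2 scale) of the 12 probesets in 4 Meishan gilts (red, left) and 4 Yorkshire gilts (blue, right). Each symbol is a gilt, the black line is the geometric mean and the dotted line the signal of 64. Yorkshire gilts lie above all Meishan gilts for PTGDS and ALOX5AP, and Meishan gilts above all Yorkshire gilts for the dimmer PTGES3 probeset.

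PTGS2, the inducible cyclooxygenase, averaged a signal of 551 in Meishan against 1109 in Yorkshire endometrium. Its signal (Entrez gene 397590) was 1527, 892, 391 and 174 across Meishan gilts 1 to 4, against 656, 721, 973 and 3279 across Yorkshire gilts 1 to 4. The breeds overlapped widely, since 2 Meishan gilts lay within the Yorkshire range, and the extremes were Meishan gilt 4 at the low end and Yorkshire gilt 4 at the high end. The log2 difference was -1.01 (SE 0.76, 95% interval -2.77 to 0.75, limma adjusted p = 0.587). It was -0.45 without Meishan gilt 4, -0.49 without Yorkshire gilt 4 and -1.50 without Meishan gilt 1.

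The spread among gilts was the more prominent feature of PTGS2. The highest gilt had 18.9 times the signal of the lowest, with 8.79-fold between the extremes in Meishan and 5.0-fold in Yorkshire. Its SD within a breed was 1.23 on the log2 scale, larger than that of 98.6% of the 16718 probesets with a mean signal of at least 64. By contrast PTGES, further along the pathway, had an SD of 0.23, larger than 21.1% of them.

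The annotated genes with a pattern nearest to that of PTGS2 were DEFB1, an antimicrobial defensin of epithelia, THBS1, the matrix glycoprotein thrombospondin, and C2CD2. Likeness was the mean absolute difference of log2 signals over the 8 gilts after each probeset was centred on its own mean, and 8002 probesets with 1 symbol and a mean signal of at least 64 were searched. The value was 0.36 for DEFB1, 0.40 for THBS1 and 0.49 for C2CD2, where PTGS2 itself deviated from its mean by 0.88 on average. DEFB1 had signals of 935, 429, 159.5 and 65.4 across Meishan gilts 1 to 4, against 391, 230.1, 588 and 959 across Yorkshire gilts 1 to 4. As for PTGS2, Yorkshire gilt 4 was the highest and Meishan gilt 4 the lowest. The likeness rests on 8 animals and is a description only.

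**Figure D2:**
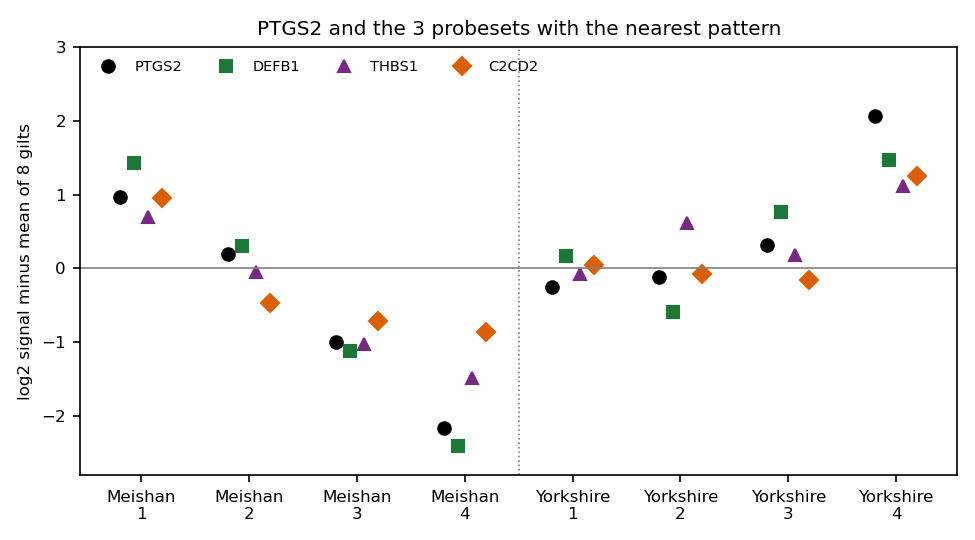
Log2 signal minus the mean of the 8 gilts (vertical axis) for PTGS2, DEFB1, THBS1 and C2CD2 in Meishan gilts (left of the dotted line) and Yorkshire gilts (right of it). All 4 genes are high in Meishan gilt 1 and Yorkshire gilt 4 and low in Meishan gilts 3 and 4.

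Marker genes for the trophoblast of the elongating conceptus, which expresses PTGS2 itself, also varied among these gilts. Whether their signal came from conceptus cells was not tested. Over 6 measured trophoblast marker genes, the mean log2 level spanned 4.34 to 6.25 across Meishan and 5.76 to 7.31 across Yorkshire gilts, and 5 of the 6 reached a signal of 64 in at least 2 gilts of a breed. Of the 6 genes 2 lay toward Meishan and 4 toward Yorkshire, and none was called. The 2 toward Meishan were CYP17A1 and HSD3B1, with means of 35.5 and 80.0 in Meishan and of 31.6 and 65.9 in Yorkshire. Both CYP17A1 and CYP11A1 (20.9 in Meishan and 41.8 in Yorkshire) had means below the working level. TFAP2C, a transcription factor of the trophoblast, had 2.5, 5.12, 20.3 and 5.21 across Meishan gilts 1 to 4, against 26.2, 66.5, 54.8 and 71.1 across Yorkshire gilts 1 to 4, without overlap and mostly below the working level (limma adjusted p = 0.105). IFNG, an interferon that the pig trophoblast secretes, was looked at after its values were seen. It had 14.2, 904, 304 and 114 across Meishan gilts 1 to 4, against 4604, 221, 6286 and 33.5 across Yorkshire gilts 1 to 4. The order of the gilts thus differed between these markers, as Yorkshire gilt 4, which had the most PTGS2, was the highest of the 8 for TFAP2C and the lowest of its breed for IFNG. The part of conceptus material in the PTGS2 values was not tested.

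PTGS1 (Entrez gene 397541), the constitutively expressed cyclooxygenase, was measured by 2 dim probesets that gave opposite directions. At the brighter one the signal was 76.2, 58.1, 16.2 and 109 across Meishan gilts 1 to 4, against 59.6, 77.7, 196 and 63.0 across Yorkshire gilts 1 to 4. At the dimmer one it was 40.4, 62.6, 81.3 and 105 in Meishan and 46.3, 59.3, 38.4 and 29.7 in Yorkshire. Gilt 3 of each breed shows the disagreement, as Meishan gilt 3 was the lowest of all at the brighter probeset and the second highest at the dimmer one, while Yorkshire gilt 3 was the highest of all at the brighter probeset.

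The log2 difference of PTGS1 was -0.72 at the brighter probeset (SE 0.64, 95% interval -2.18 to 0.74, limma adjusted p = 0.646) and 0.70 at the dimmer one (SE 0.34, 95% interval -0.09 to 1.49, limma adjusted p = 0.395). The first became -0.15 without Meishan gilt 3 and -0.33 without Yorkshire gilt 3. At the dimmer probeset 3 Meishan gilts lay above all Yorkshire gilts, and the mean signals, 68.2 in Meishan and 42.1 in Yorkshire, were near the working level for detection. No direction can therefore be given for PTGS1. The paper reports more PTGS1 in Meishan and more PTGS2 in Yorkshire, neither passing its q-value threshold. It proposes that higher PTGS1 may matter for the survival of embryos in Chinese breeds. For PTGS1 only the dimmer probeset lay in that direction here, and the brighter one lay in the opposite direction. The paper does not say which probeset it read. The mean of PTGS2 lay toward Yorkshire here too, with the breeds overlapping. The nearest patterns to the brighter PTGS1 probeset were those of NYNRIN at 0.36, LOC100621559 at 0.37 and ADGRG1, an adhesion receptor, at 0.39, where PTGS1 deviated from its own mean by 0.64 on average.

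The balance of the cyclooxygenases within a gilt was also set between the breeds, as the log2 signal of PTGS2 minus that of PTGS1. Probesets differ in brightness for the same amount of RNA, so only differences between gilts can be read from it. With the brighter PTGS1 probeset it was 4.32, 3.94, 4.59 and 0.67 across Meishan gilts 1 to 4, against 3.46, 3.21, 2.31 and 5.70 across Yorkshire gilts 1 to 4, with means of 3.38 ± 1.83 in Meishan and 3.67 ± 1.44 in Yorkshire (SD, n = 4 each). With the dimmer one the means were 3.01 ± 1.95 in Meishan and 4.72 ± 1.46 in Yorkshire (SD, n = 4 each). The breeds overlapped with either probeset, and the shift between the breeds depended on the probeset. With the brighter one, Meishan gilts 1 to 3 lay above Yorkshire gilts 1 to 3, and the order of the means rested on gilt 4 of each breed.

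PTGES3 (Entrez gene 100155956), also known as p23, is a cytosolic prostaglandin E synthase and a cochaperone of HSP90. Its 2 probesets differed. At the brighter one the signal was 699, 341, 513 and 773 across Meishan gilts 1 to 4, against 618, 507, 499.8 and 770.4 across Yorkshire gilts 1 to 4, and the breeds lay over each other (log2 difference -0.09, SE 0.30, 95% interval -0.77 to 0.60, limma adjusted p = 0.917). At the dimmer one it was 146, 136, 96.1 and 548 across Meishan gilts 1 to 4, against 69.3, 60.9, 60.1 and 63.0 across Yorkshire gilts 1 to 4. Here every Meishan gilt lay above every Yorkshire gilt, Meishan gilt 4 stood far above the others, and the Yorkshire gilts were all close to the working level for detection.

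The dimmer PTGES3 probeset had a log2 difference of 1.51 (SE 0.50, 95% interval 0.36 to 2.65, limma adjusted p = 0.226), which was 0.97 without Meishan gilt 4. The SD on the log2 scale was 1.1 among Meishan and 0.09 among Yorkshire gilts, and only 1 of the 4 Yorkshire gilts reached the working level. With the spread in Meishan and the low signal in Yorkshire, the size of the difference is poorly determined and no fold is given. The gene list of the study, which was chosen on these arrays, holds this probeset under the same name, so its direction is no independent evidence. The difference between the 2 probesets was not tested.

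**Figure D3:**
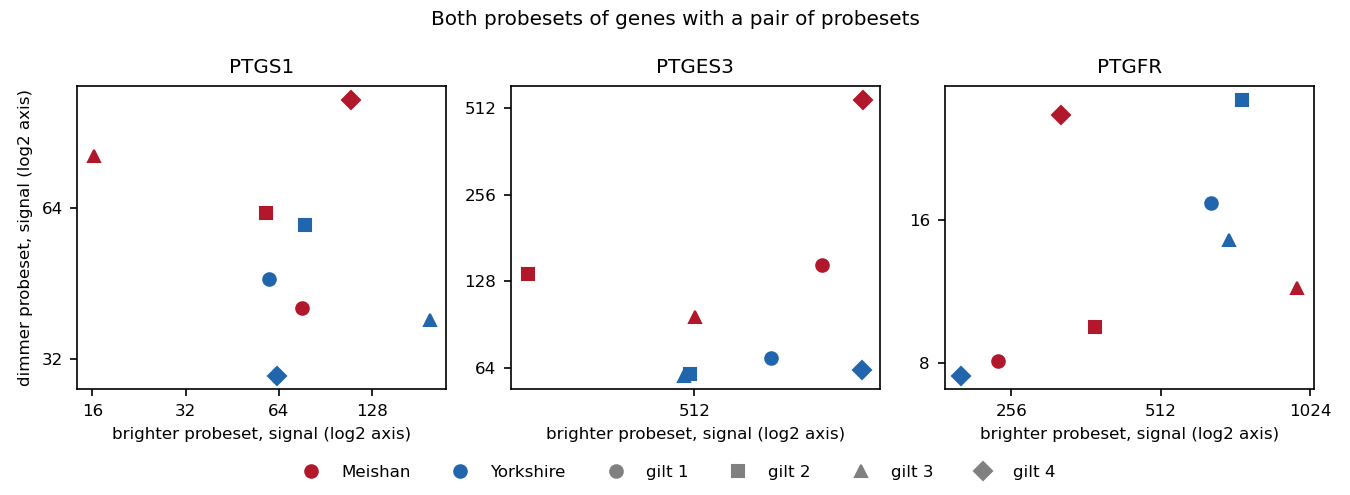
Signal of the brighter probeset (horizontal axis) against that of the dimmer probeset (vertical axis), both on log2 scales, for PTGS1, PTGES3 and PTGFR in Meishan (red) and Yorkshire (blue) gilts, 1 symbol per gilt. The 8 gilts fall in a different order on each axis for PTGS1, and only the vertical axis parts the breeds for PTGES3.

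PTGES, the inducible membrane prostaglandin E synthase, was the most even of these transcripts. Its signal (Entrez gene 654407) was 430.3, 352, 288 and 387 across Meishan gilts 1 to 4, against 382, 303, 435 and 376 across Yorkshire gilts 1 to 4. The log2 difference was -0.04 (SE 0.20, 95% interval -0.50 to 0.42, limma adjusted p = 0.945), the narrowest interval of the 12. Its sign was the opposite without further scaling, after quantile or cyclic loess normalization and in the methods' linear model.

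PTGDS, which makes prostaglandin D and is also a secreted carrier of lipophilic ligands, had the lowest p of the 12 probesets. Its signal (Entrez gene 397456) was 218, 234, 302 and 218 across Meishan gilts 1 to 4, against 332, 534, 534 and 522 across Yorkshire gilts 1 to 4. All Yorkshire gilts lay above all Meishan gilts, and 3 of the Yorkshire gilts were almost level while gilt 1 was lower. The mean signal was 241 in Meishan and 471 in Yorkshire, 1.96-fold greater in Yorkshire (log2 difference -0.97, SE 0.23, 95% interval -1.49 to -0.45, limma adjusted p = 0.130). It missed the threshold, but it was called in 4 of 20 alternatives. The limma adjusted p was 0.0626 among probesets with a mean signal of at least 64, 0.0674 with signals below 32 set to 32 and 0.0669 with an intensity trend, and the Storey q-value was 0.0944. Over all alternatives it ranged from 0.0626 to 0.270.

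TBXAS1, the synthase of the vasoconstrictor thromboxane, had signals (Entrez gene 397112) of 101, 143, 206 and 163 across Meishan gilts 1 to 4, against 77.4, 40.1, 108 and 103 across Yorkshire gilts 1 to 4. Meishan gilts 2, 3 and 4 lay above all Yorkshire gilts, and Meishan gilt 1 fell within the Yorkshire range. The log2 difference was 0.95 (SE 0.37, 95% interval 0.11 to 1.80, 1.94-fold greater mean signal in Meishan, limma adjusted p = 0.288), and 0.64 without Yorkshire gilt 2, the lowest of the 8.

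Thromboxane synthase is abundant in platelets and macrophages. Of 5 measured blood and platelet genes, 3 lay toward Meishan and 2 toward Yorkshire, and the mean log2 level of the list spanned 6.86 to 7.59 across Meishan and 6.25 to 7.45 across Yorkshire gilts. The platelet glycoproteins GP9 and ITGA2B had mean signals of 253 and 124 in Meishan and of 153 and 69.0 in Yorkshire, without overlap, and neither was called (limma adjusted p = 0.154 and 0.195). The platelet chemokine PPBP stayed below a signal of 64 in every gilt. Among 6 leukocyte markers, 2 lay toward Meishan and 4 toward Yorkshire. Toward Meishan, the integrin chain ITGB2 averaged 455 in Meishan against 287 in Yorkshire without overlap (limma adjusted p = 0.292). CD14, a receptor of monocytes and macrophages, averaged 255 in Meishan against 168 in Yorkshire (limma adjusted p = 0.431). The 4 toward Yorkshire were PTPRC, CD3E, CD2 and AIF1. Of these AIF1, a further macrophage marker, averaged 388 in Meishan against 435 in Yorkshire (limma adjusted p = 0.881). The part of blood and of macrophages in the TBXAS1 values was not tested.

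**Figure D4:**
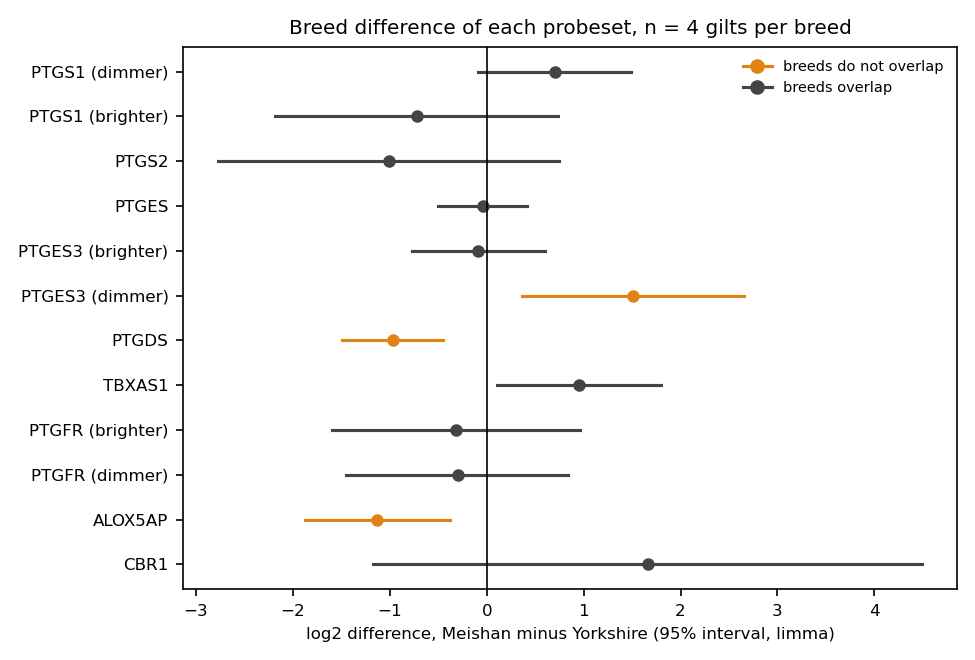
Log2 difference, Meishan minus Yorkshire (horizontal axis), with its 95% interval from limma, for the 12 probesets, with 4 gilts per breed. Orange marks the 3 probesets at which no gilt of one breed lay among those of the other. The intervals of TBXAS1, the dimmer PTGES3 probeset, PTGDS and ALOX5AP leave out 0, and none of the 12 passed the adjusted threshold.

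CBR1, a carbonyl reductase that can turn prostaglandin E into prostaglandin F, could not be assessed from its own probeset. The signal there (Entrez gene 397143) was 8.13, 2.78, 88.9 and 22.3 across Meishan gilts 1 to 4, against 15.5, 0.74, 5.41 and 7.28 across Yorkshire gilts 1 to 4, so that 1 gilt of 8 reached the working level for detection, and no fold is given (limma adjusted p = 0.576). A further probeset is annotated to both CBR1 and LOC100622246, for which RefSeq has the synonym CBR3, and is not counted among the 12. It was well measured, with 485, 487, 831 and 594 across Meishan gilts 1 to 4, against 573, 566, 866 and 466 across Yorkshire gilts 1 to 4. The breeds lay over each other (log2 difference -0.04, SE 0.27, 95% interval -0.66 to 0.57, limma adjusted p = 0.958), and gilt 3 was the highest of either breed.

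PTGFR (Entrez gene 397126), the receptor for prostaglandin F, had at its brighter probeset a signal of 241, 378, 963 and 323 across Meishan gilts 1 to 4, against 647, 748, 704 and 203 across Yorkshire gilts 1 to 4. The highest and the lowest gilt were thus Meishan gilt 3 and Yorkshire gilt 4, each far from the rest of its breed. The log2 difference was -0.32 (SE 0.55, 95% interval -1.60 to 0.96, limma adjusted p = 0.832), -0.73 without Meishan gilt 3 and -0.77 without Yorkshire gilt 4. Its SD within a breed of 0.88 was larger than that of 95.6% of probesets with a mean signal of at least 64. The dimmer probeset spanned 8.05 to 26.6 across Meishan and 7.51 to 28.7 across Yorkshire, below the working level in every gilt.

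The nearest patterns to PTGFR were those of METTL17 at 0.23, C6H1orf210 at 0.26 and TFDP2, a partner of the E2F transcription factors, at 0.29, where PTGFR deviated from its own mean by 0.72 on average. METTL17 had signals of 1985, 3806, 4977 and 3025 across Meishan gilts 1 to 4, against 5349.5, 5679, 6635 and 2139 across Yorkshire gilts 1 to 4. Like PTGFR, it was highest within Meishan in gilt 3 and lowest within Yorkshire in gilt 4. Yorkshire gilt 4 thus combined the highest PTGS2 with the lowest PTGFR signal of the 8 gilts.

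ALOX5AP presents arachidonic acid to 5-lipoxygenase, the first step toward leukotrienes, and draws on the same substrate as the cyclooxygenases. Its signal (Entrez gene 397392) was 113, 119, 176 and 74.3 across Meishan gilts 1 to 4, against 188, 248, 389.6 and 224 across Yorkshire gilts 1 to 4. All Yorkshire gilts lay above all Meishan gilts, though the highest Meishan gilt came close to the lowest Yorkshire gilt. The log2 difference was -1.13 (SE 0.33, 95% interval -1.88 to -0.38, 2.19-fold greater mean signal in Yorkshire, limma adjusted p = 0.185). Among probesets with a mean signal of at least 64 the limma adjusted p came just under the threshold (0.09998), and over all alternatives it ranged from 0.09998 to 0.335. This probeset too is in the gene list of the study, which was chosen on these arrays. The paper also measured ALOX5AP by quantitative PCR in the same gilts and reports the direction of its array result.

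Cells of the blood lineage are the usual source of ALOX5AP. The mean log2 level of 6 measured leukocyte markers spanned 7.16 to 8.07 across Meishan and 7.41 to 7.66 across Yorkshire gilts, with 2 of the 6 toward Meishan and 4 toward Yorkshire. The 2 measured mast cell markers lay in opposite directions. KIT, a receptor of mast cells and some other cells, averaged 139.5 in Meishan against 403 in Yorkshire and was called (log2 difference -1.53, limma adjusted p = 0.0726). MS4A2, a chain of the IgE receptor and more specific to mast cells, averaged 164 in Meishan against 68.0 in Yorkshire (log2 difference 1.27, limma adjusted p = 0.101) and was not. The part of these cells in the ALOX5AP values was not tested.

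Other genes of the pathway were taken from a list ordered by role, each at its brightest probeset. Of 78 symbols in the list, 32 were measured, 19 of them toward Meishan and 13 toward Yorkshire, with a median log2 difference of 0.17, where it was 0.0211 over all tested probesets. None was called by limma. An unadjusted p below 0.05 was found for 3 genes toward Meishan and 4 toward Yorkshire, 7 of 32 against 14.8% of all probesets. Of these 7, the 3 phospholipases described next are measured only through the gene list of the study, which was chosen on these arrays, and among the 29 genes that the annotation of the array names it was 4, 1 toward Meishan and 3 toward Yorkshire. The 1 toward Meishan was PTGER3, which stayed below the working level in every gilt. With every probeset of these genes, 48 in all, 0 were called and 10 reached an unadjusted p under 0.05.

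Among 7 measured phospholipases, the genes with the lowest p lay on both sides. PLA2G10, a secreted enzyme, had signals of 372, 2077, 695 and 405 across Meishan gilts 1 to 4, against 2078, 3529, 4602 and 1005 across Yorkshire gilts 1 to 4 (log2 difference -1.82, SE 0.66, limma adjusted p = 0.263). Meishan gilt 2, at 2077, was the one Meishan gilt among the Yorkshire values. PLA2G4D, a cytosolic enzyme, and PLA2G1B, the secreted enzyme first known from the pancreas, lay toward Meishan, with mean signals of 58.0 and 93.5 in Meishan and of 15.0 and 40.7 in Yorkshire (limma adjusted p = 0.217 and 0.228). Both means of PLA2G4D and the Yorkshire mean of PLA2G1B lay below the working level. All 3 phospholipases are named only by the gene list of the study, so their directions are no independent evidence.

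Of 4 other synthases, 2 reached the working level in at least 2 gilts of a breed, AKR1CL1 and AKR1C1. AKR1CL1, an aldo-keto reductase, had a mean of 255 in Meishan and 197 in Yorkshire, while the means of AKR1C1 (36.9 in Meishan and 46.5 in Yorkshire) and CBR3 (10.7 in Meishan and 13.9 in Yorkshire) lay below that level. Of the reductases that inactivate prostaglandins downstream of HPGD, ZADH2 had a log2 difference of -0.30, PTGR2 of 0.18 and PTGR1 of 0.20, and their limma adjusted p was 0.507, 0.726 and 0.791. Their mean signals were 1428, 1622 and 1161 in Meishan and 1762, 1429 and 1014 in Yorkshire. Prostaglandin receptors other than PTGFR were represented by PTGER3, the inhibitory prostaglandin E receptor, which stayed between 8.11 and 46.5 in Meishan and between 4.11 and 9.49 in Yorkshire gilts, below the working level. PTGFRN, a membrane partner of PTGFR, averaged 959 in Meishan against 683 in Yorkshire (log2 difference 0.49, SE 0.47, limma adjusted p = 0.676).

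Of 6 leukotriene genes, 4 lay toward Meishan and 2 toward Yorkshire, where ALOX5AP lay. The cysteinyl leukotriene receptors lay apart, with CYSLTR1 averaging 71.9 in Meishan against 42.1 in Yorkshire (log2 difference 0.77, SE 0.57, limma adjusted p = 0.578). The signal of CYSLTR2 was 63.6, 112, 78.6 and 68.0 across Meishan gilts 1 to 4, against 194, 168, 112 and 98.5 across Yorkshire gilts 1 to 4 (log2 difference -0.81, SE 0.29, limma adjusted p = 0.259). MGST3, a glutathione transferase that can make leukotriene C, had a log2 difference of -0.35, and GGT1, which converts leukotriene C further, one of 0.40 (limma adjusted p = 0.529 and 0.550).

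Of 10 measured regulators of PTGS2 in the uterus, 6 lay toward Meishan and 4 toward Yorkshire. The largest difference was that of OXT, the peptide oxytocin, which stimulates prostaglandin F release from the endometrium. OXT had 144, 22.3, 10.4 and 14.5 across Meishan gilts 1 to 4, against 3651, 2453, 10.4 and 2217 across Yorkshire gilts 1 to 4, so 3 Yorkshire gilts were high and gilt 3 was as low as the Meishan gilts. As 3 of the 4 Meishan gilts lay below the working level for detection, the size of the difference is poorly determined. It was not called with all gilts (log2 difference -4.68, SE 1.89, limma adjusted p = 0.305) and was called without Yorkshire gilt 3 (-6.68, limma adjusted p = 0.0720). The paper reports more OXT in Yorkshire both on these arrays and by quantitative PCR in the same gilts. The oxytocin receptor OXTR averaged 63.2 in Meishan against 22.1 in Yorkshire (log2 difference 1.51, SE 0.75, limma adjusted p = 0.395). Both means lay below the working level, so the size of this difference too is poorly determined. Yorkshire gilt 1, at 80.4, lay above every Meishan gilt except gilt 3, at 132. PGR, the progesterone receptor, had 437, 268, 323 and 336 across Meishan gilts 1 to 4, against 495, 446, 468 and 579 across Yorkshire gilts 1 to 4. Here the breeds did not overlap (log2 difference -0.56, SE 0.20, limma adjusted p = 0.263).

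**Figure D5:**
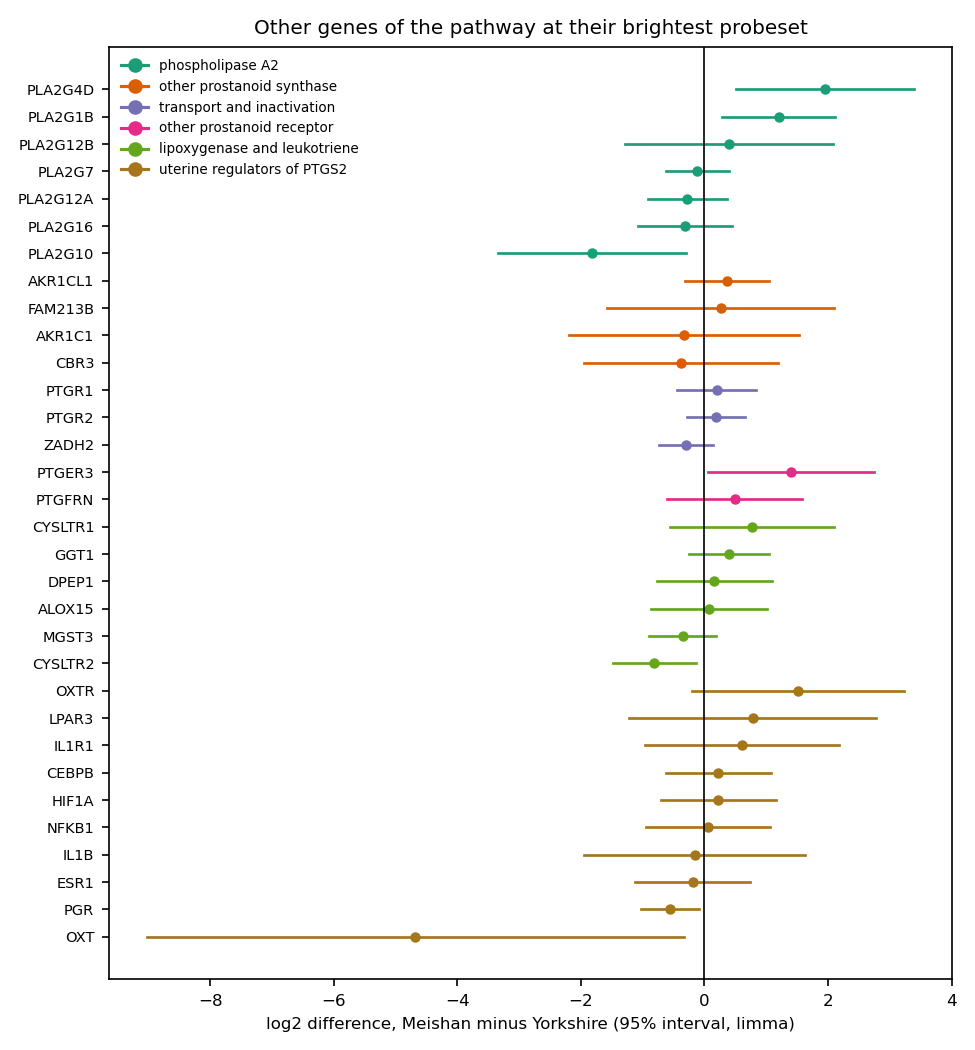
Log2 difference, Meishan minus Yorkshire (horizontal axis), with its 95% interval from limma, for 32 other genes of the pathway at their brightest probeset, coloured by role, with 4 gilts per breed. Most intervals span 0, that of OXT is the widest, and no gene passed the adjusted threshold.

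Values of the arrays as a whole were checked once. The median signal of the tested probesets spanned 168.5 to 194.7 across Meishan and 171.1 to 187.3 across Yorkshire arrays. The log2 ratio of the 3 prime to the 5 prime control signal, which rises as RNA degrades, averaged 1.33 in Meishan and 1.41 in Yorkshire for actin and 2.21 in Meishan and 2.15 in Yorkshire for GAPDH (exact permutation test over 70 arrangements, two-sided, p = 0.83 for each). Spike-in controls added at hybridization averaged 12.14 in Meishan and 11.08 in Yorkshire on the log2 scale without overlap (exact permutation test, two-sided, p = 0.0286, the smallest that 70 arrangements allow), and their part in the breed differences was not tested. Uterine markers were present in both breeds, as all 5 measured reached a signal of 64. Their mean log2 level spanned 9.85 to 10.12 across Meishan and 10.12 to 10.7 across Yorkshire gilts. All 5 lay toward Yorkshire, and none was called. The smallest difference of the 5 was that of ACP5, the iron-binding uteroferrin of the glands (mean signal 21429.8 in Meishan and 23005 in Yorkshire). The mean log2 level of 7 epithelial markers spanned 10.94 to 11.68 across Meishan and 10.89 to 11.80 across Yorkshire gilts. That of 6 stromal markers spanned 13.58 to 13.97 across Meishan and 13.23 to 13.94 across Yorkshire, with THY1 at 843 in Meishan against 3113 in Yorkshire. At 4 of these 6 genes every Meishan gilt lay above every Yorkshire gilt, as at 5.01% of all probesets. They were VIM, COL1A2, COL3A1 and DCN (log2 difference 0.47, 0.44, 0.62 and 0.27, limma adjusted p = 0.245, 0.250, 0.170 and 0.487), and none was called. The probesets of the collagens are named only by the gene list of the study, which was chosen on these arrays. The mean log2 level of 5 smooth muscle markers had its highest gilt at 10.74 in Meishan and 10.59 in Yorkshire, and that of 6 endothelial markers spanned 9.71 to 9.97 across Meishan and 10.06 to 10.40 across Yorkshire, without overlap. Of these 6, PECAM1 lay toward Meishan (log2 difference 0.11) and 5 toward Yorkshire. Among the latter, KDR is named only by the gene list of the study, which was chosen on these arrays.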

How the data were processed

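RNA of 8 endometria was hybridized to Affymetrix Porcine Genome arrays, and the authors converted the scans with GCOS 1.2. The deposited intensities are linear signals per probeset, scaled by the authors to a 2% trimmed mean of 500.1 on every array. Of 24123 probesets, 124 controls were left out. Detection calls were not used here.

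Signals were put on the log2 scale, centred on each array's median and put back on a common level, and Meishan was compared with Yorkshire in limma 3.58.1 (R 4.3.3) by a moderated linear model (empirical Bayes, 2.09 prior degrees of freedom), with p-values adjusted by Benjamini-Hochberg across 23999 probesets. The study used a SAS mixed model on natural logs with slide and animal terms. The procedure was tested on simulated data. Of the probesets, 10069 had 1 symbol in the annotation of the array, 198 several and 13732 none. Names of the study's gene list, held here in part, were also used, and its columns of the authors' own means, fold changes and p-values were not.

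All members are named, up to 3 genes with the lowest p per role, and the 3 probesets nearest in pattern to PTGS1, PTGS2 and PTGFR. CYSLTR1 and the cell type markers (IFNG, TFAP2C, CYP17A1, CYP11A1, HSD3B1, GP9, ITGA2B, PPBP, ITGB2, CD14, PTPRC, CD3E, CD2, AIF1, KIT, MS4A2, ACP5, THY1, VIM, COL1A2, COL3A1, DCN, PECAM1, KDR) fall outside it, picked once their values were known. Members and lists were chosen with earlier results of these data known. Alternatives were other scalings, a filter, a floor, other variance models, Storey q-values, the methods' linear model (unmoderated, without centring), a stricter threshold, the replicate number as a block, and leaving out each gilt. Genome positions were not used here.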

Additional observations from a re-analysis of the deposited data

Results flagged for a closer look

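A sample far from the others of its breed was found for 2 of the 26 sets of 4 gilts examined, 13 probesets in 2 breeds, where chance alone marks about 1 set in 20. Yorkshire gilt 1 had a PTGDS signal of 332, below the other Yorkshire gilts at 534, 534 and 522, a gap of 0.950 of the range of the breed. Without this gilt the log2 difference of PTGDS was -1.14 (limma adjusted p = 0.129). Yorkshire gilt 4 had a PTGFR signal of 203 at the brighter probeset, below 647, 748 and 704 in the other Yorkshire gilts, a gap of 0.888 of the range. Both gaps exceed the critical value of Dixon's test at the 95% level for 4 samples.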

How the results depend on the processing

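Over the 12 probesets and their alternatives, 222 of 237 values kept their direction and their side of the threshold, 5 came under it and 10 changed sign, none of these called. The count of members called was 2 among probesets with a mean signal of at least 64 (PTGDS and ALOX5AP) and 1 (PTGDS) with a floor of 32, an intensity trend or Storey q-values, and 0 without any 1 gilt. Over all probesets the count of 218 became 668 with that filter, where fewer were tested (16718), 777 with the floor, 626 with the trend, 497 with array quality weights, 499 with the methods' linear model and q-values, 532 with Storey q-values, 60 at a threshold of 0.05 and between 72 and 205 without 1 gilt. Leaving out Meishan gilt 2, 3 or 4 gave 108, 89 or 72 calls, and leaving out Yorkshire gilt 1, 2 or 3 gave 111, 106 or 92. The cause was not tested. The count of other pathway genes lay between 0 and 1 without 1 gilt, the 1 being OXT without Yorkshire gilt 3. The working level of 64 was reached by 10 probesets, a level of 32 by 10 and the higher level tried by 8.

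Signs turned only near 0. The log2 difference of PTGES was 0.0217 without further scaling and in the methods' linear model, 0.0228 with quantile normalization and 0.0337 with cyclic loess (without 1 gilt -0.14 to 0.0663), and that of the brighter PTGES3 probeset was 0.0150 with cyclic loess (-0.25 to 0.15). The probeset shared by CBR1 and LOC100622246 gave 0.0207 without further scaling and in the methods' linear model, 0.0576 with quantile normalization, 0.0630 with cyclic loess and 0.0567 with array quality weights (-0.21 to 0.13 without 1 gilt). The dimmer PTGFR probeset ranged from -0.67 to 0.000377 without 1 gilt.

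Replicate numbers did not pair the gilts, as deviations from the breed means correlated between equally numbered gilts at -0.0561, 0.089, 0.00105 and 0.0407, and 3 of 8 gilts correlated best with their own number. With the replicate block 0 probesets were called in limma, with 3327 at an unadjusted p under 0.05, and 0 members.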
